A study of Mus musculus with 14 samples.

Results

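A narrow promoter peak is here a listed H3K27me3 peak less than 2000 bp wide that covered the start of a protein-coding gene or lay no more than 1000 bp from it. Gene starts were read by strand from the GENCODE annotation of mouse build mm10. Of the 23668 listed peaks 2267 met this rule, or 9.58%. They belonged to 1832 of the 22028 annotated protein-coding genes (8.32%) and made up 87.1% of the 2604 peaks of any width at such starts. The rule uses width and position only.

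The peaks came from chromatin immunoprecipitation and sequencing (ChIP-seq) of primary hippocampal neurons, cultured from the embryos of CD1 mice in litters of mixed sex and labelled WT for genotype. Knockdown neurons received gapmers against NeuID, a long noncoding RNA, and control neurons received a negative control gapmer. Gapmers are antisense oligonucleotides that lead to cleavage of the RNA they pair with, and both kinds were delivered in lipid nanoparticles. The labels list 6 control and 6 NeuID knockdown libraries, and 1 input library for each group. Cells were collected well by well, and no source used here says whether libraries of a group came from separate litters.

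For each peak, the values are the authors' log2 means of normalized reads in the control and in the knockdown libraries. Without values per library no spread could be computed. The p-value and FDR that the authors deposited for each peak are their own comparison and were not used, so every difference below is a description of the authors' means, with no test. In 2093 of the narrow promoter peaks the weight of the control mean in the authors' overall mean could be solved, and it was 0.545 in each. That is the weight of 6 control to 5 knockdown libraries, 11 in all, while 12 were labelled. The paper's figure legend for these ChIP-seq data gives 5 per group, which matches neither number. Neither the depth of the libraries nor the extent of the NeuID knockdown was analysed here. Where a group mean came to no more than 1 normalized read it is listed at 0.

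Polycomb repressive complex 2 writes H3K27me3, 3 methyl groups on lysine 27 of histone H3, and its catalytic subunit is EZH1 or EZH2. The mark is found over promoters that are kept silent, above all over CpG islands, stretches rich in C followed by G that start many developmental genes. In differentiated neurons it covers genes of other lineages and of other neuron types. It forms broad domains over the main developmental regulators and short peaks at many other silent promoters. The peaks here are short by their listed width. Some may be parts of broader domains, as 156 of the 2267 lay within 5 kb of a listed peak of 2000 bp or more.

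To show what these promoters look like, 200 bases without exon sequence are printed from 6 of the peaks, read 5′ to 3′ on the strand of the gene from mm10, with each CG dinucleotide in capitals. H2-Q1 and Pax5 are among the 3 peaks with the highest means, Among peaks whose equally weighted mean, the log2 of the average of both groups' normalized reads, was at least 4, Grm6 and Nkx2-6 had the largest differences towards lower knockdown means on an assembled chromosome, and F11r and Olig1 were among the 3 largest towards higher ones. The rule behind these choices is given with the methods. The stretches lie upstream of the gene starts and outside the annotated genes, at chr17:35320205-35320404 (H2-Q1, plus strand), chr4:44710750-44710949 (Pax5, minus strand), chr11:50849685-50849884 (Grm6, plus strand), chr14:69171376-69171575 (Nkx2-6, plus strand), chr1:171437335-171437534 (F11r, plus strand) and chr16:91269572-91269771 (Olig1, plus strand). The numbers of CG dinucleotides were 0 for H2-Q1, 15 for Pax5, 1 for Grm6, 3 for Nkx2-6, 14 for F11r and 17 for Olig1. The 2 stretches from peaks with lower knockdown means held few, and the 2 from peaks with higher knockdown means held many. Over all narrow promoter peaks the difference between the groups had no such relation to CpG content (Spearman's rho 0.0063 over 2208 peaks, given without a test because peaks share their libraries).
H2-Q1: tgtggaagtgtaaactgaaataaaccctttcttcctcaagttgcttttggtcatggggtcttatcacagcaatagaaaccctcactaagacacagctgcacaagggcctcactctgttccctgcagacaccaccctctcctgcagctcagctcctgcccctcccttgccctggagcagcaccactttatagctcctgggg
Pax5: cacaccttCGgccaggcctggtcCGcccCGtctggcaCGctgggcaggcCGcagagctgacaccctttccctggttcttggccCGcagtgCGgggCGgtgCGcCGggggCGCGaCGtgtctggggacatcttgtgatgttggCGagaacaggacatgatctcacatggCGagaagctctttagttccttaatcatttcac
Grm6: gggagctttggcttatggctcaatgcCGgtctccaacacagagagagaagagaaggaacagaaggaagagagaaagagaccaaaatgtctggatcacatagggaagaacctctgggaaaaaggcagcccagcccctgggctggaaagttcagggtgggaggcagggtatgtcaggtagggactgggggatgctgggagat
Nkx2-6: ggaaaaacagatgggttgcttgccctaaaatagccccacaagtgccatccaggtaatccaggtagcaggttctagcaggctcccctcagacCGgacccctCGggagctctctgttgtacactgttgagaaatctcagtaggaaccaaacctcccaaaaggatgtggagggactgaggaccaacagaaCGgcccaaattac
F11r: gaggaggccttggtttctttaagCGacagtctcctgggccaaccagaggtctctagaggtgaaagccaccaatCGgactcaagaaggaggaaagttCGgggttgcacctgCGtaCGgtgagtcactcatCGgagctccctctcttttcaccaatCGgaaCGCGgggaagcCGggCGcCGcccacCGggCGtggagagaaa
Olig1: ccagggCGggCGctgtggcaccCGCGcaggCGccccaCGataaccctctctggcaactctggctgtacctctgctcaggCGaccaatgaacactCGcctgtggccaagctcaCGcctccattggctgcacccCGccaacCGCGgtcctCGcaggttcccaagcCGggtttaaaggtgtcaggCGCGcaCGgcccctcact

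Narrow promoter peaks were GC-rich and held many CpG sites. A peak was called CpG-rich where GC reached 50% and the observed over expected CpG count reached 0.6. By this rule 926 of the 2266 narrow promoter peaks with a sequence were CpG-rich (40.9%, 95% Wilson interval 38.9 to 42.9%, counting error only). The same rule took 3.38% of the 20683 narrow peaks elsewhere with a sequence and 46.6% of the 337 wide promoter peaks of 2000 bp or more. Median GC was 58.4% in narrow promoter peaks, 48.4% in narrow peaks elsewhere and 57.3% in wide promoter peaks, and the median observed over expected CpG was 0.547, 0.198 and 0.591. Repeat-masked bases took a median 6.27% of a narrow promoter peak and 11.5% of a narrow peak elsewhere. In base composition these short promoter peaks were thus nearer to the wide promoter peaks than to other short peaks. The other short peaks lie away from coding starts, so this does not set promoters with a peak beside promoters in general.

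Composition depended on where the peak lay. Of the 2267 peaks 837 covered the gene start, 504 lay upstream and 926 downstream. CpG-rich peaks made up 53.5% of those over the start, 44.7% of those downstream and 12.7% of those upstream. Around the gene starts themselves, from 250 bases before to 50 after, the Sp1-type motif GGGCGG, searched on both strands, was present at 57.5% of 1831 genes with a narrow promoter peak. It was present at 57.9% of the 328 genes with a wide promoter peak and at 43.0% of all 21938 protein-coding promoters. The TATA motif TATAAA was found on either strand at 10.2%, 11.6% and 12.6% of the same sets. By the rule used for peaks, these windows were CpG-rich at 44.7%, 55.5% and 41.3% of the sets. In CpG-rich windows, genes with a narrow promoter peak thus lay near the share of all coding promoters. A motif match is a match of letters and not a bound site.

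The median narrow promoter peak was 591 bp wide, with quartiles at 402.5 and 939 bp and a range from 181 to 1996 bp. Together the peaks covered 1.65 Mb. A single narrow promoter peak was found at 1448 genes, 335 genes had 2, 47 genes had 3, and 2 genes, Drd2 and Ret, had 4. A wide promoter peak was also present at 71 of the 1832 genes. No other listed peak lay within 5 kb of 890 of the narrow promoter peaks (39.3%), so these stood alone, while 156 lay within 5 kb of a wide peak.

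The gene classes, set by patterns in gene symbols, differed in how often they carried such a peak, as the bar plot of genes per class shows. Among 163 neurotransmitter and neuropeptide receptor genes 62 did (38.0%), the highest share of any class, and only 4 of these 163 (2.45%) had a wide promoter peak. Basic helix-loop-helix factors, which set cell fates in nervous system and muscle, followed with 24 of 67 (35.8%), and 26.9% had a wide peak. Homeobox factors, the regulators of body and brain regions, had narrow peaks at 67 of 195 genes (34.4%) and wide peaks at 111 (56.9%). The receptors were therefore marked almost always by short peaks, and the homeobox genes more often by wide ones. Wnt, BMP, TGF-beta, FGF, hedgehog and Notch signalling genes had narrow peaks at 51 of 159 (32.1%), and forkhead, Sox, T-box and GATA factors at 25 of 86 (29.1%). Extracellular matrix genes had them at 49 of 199 (24.6%) and ion channel genes at 48 of 210 (22.9%), with wide peaks at 3.02% and 2.38%.

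At the low end, olfactory, vomeronasal and taste receptor genes had narrow promoter peaks at 20 of 1506 genes (1.33%). C2H2 zinc finger genes named Zfp, Zbtb or Zscan had them at 8 of 471 (1.70%), and ribosome, mitochondrion and proteasome genes, which every cell uses, at 5 of 471 (1.06%). No histone gene of 101 carried such a peak. In the remaining protein-coding genes the share was 1219 of 16500 (7.39%), just below the 8.32% of all coding genes. These shares describe a list of called peaks, and a gene without a listed peak may still carry the mark below the limit of calling.

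**Figure D1:**
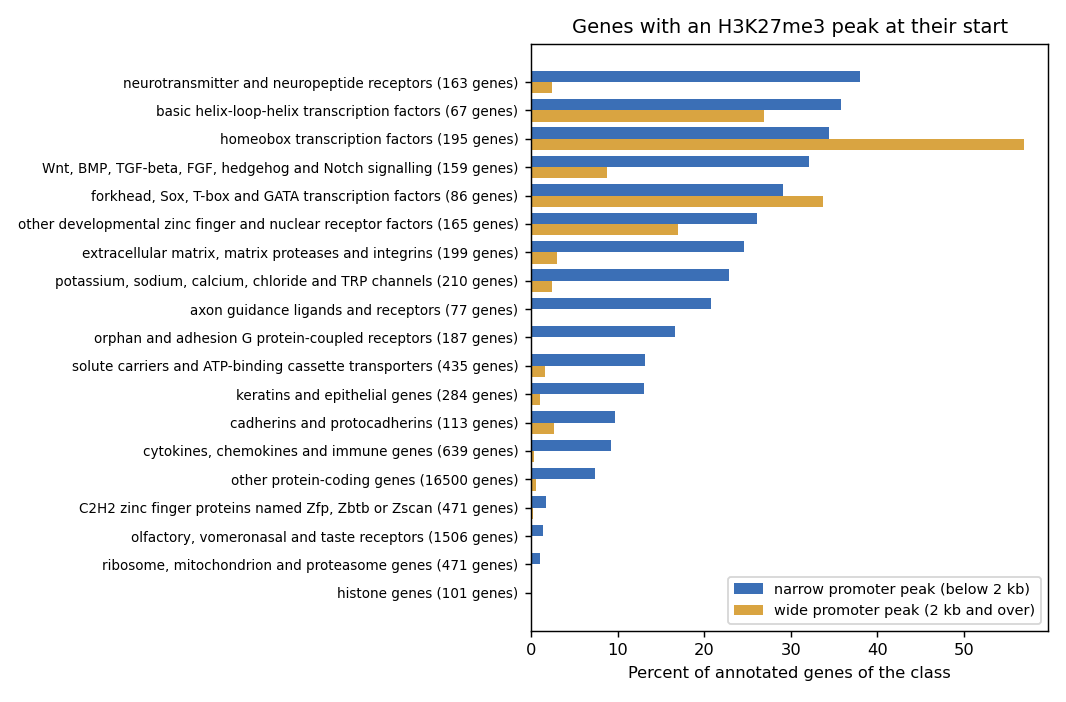
Percent of the annotated genes of each class (x axis) with at least 1 narrow promoter peak (blue) or at least 1 wide promoter peak (yellow), for 19 classes ordered by the narrow share (y axis). Receptor genes head the narrow bars at 38.0% with a wide bar of 2.45%, while homeobox genes have the longest wide bar at 56.9%, and histone genes have none of either.

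The comparison of the group means asked whether H3K27me3 at these promoters differed after loss of NeuID. The median difference and the sums were near equal between the groups, while single peaks spread widely. The knockdown mean was the lower in 1097 of 2267 narrow promoter peaks, or 48.4% (95% Wilson interval 46.3 to 50.4%), against 50.8% of all listed peaks. The median difference, knockdown minus control, was 0.04 on the log2 scale with quartiles at -0.60 and 0.68, and over all listed peaks it was -0.02. The median peak had 11.8 normalized reads in the control and 12.0 in the knockdown. The control means of the 2267 peaks added up to 36059.5 and their knockdown means to 36712.8 normalized reads. The knockdown sum was thus 101.8% of the control sum, beside 97.1% over all listed peaks and 93.3% over the wide promoter peaks. How the authors normalized the reads was not stated, so these ratios do not give a change in the total mark.

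A peak was counted past 2-fold where both means were above 0 and the means differed by at least 1 on the log2 scale. Of the 2209 narrow promoter peaks with both means above 0, 309 were at least 2-fold lower in the knockdown (14.0%), and 18.5% of all listed peaks were so. At least 2-fold higher in the knockdown were 352 (15.9%), against 18.4% of all listed peaks. A difference within 1.5-fold was seen at 47.8% of narrow promoter peaks and at 42.3% of all listed peaks. Past 2-fold counts were thus below those of all listed peaks in both directions. The higher and lower counts were similar, as the plot of the group means shows. Narrow promoter peaks held more reads, with a median equally weighted mean of 3.56 against 2.93 over all listed peaks. With that mean at least 4, 7.20% of narrow promoter peaks were 2-fold lower and 7.70% higher, against 8.21% and 5.92% of all listed peaks. At all strengths together, narrow peaks elsewhere were 2-fold lower in 19.6% and 2-fold higher in 19.3%. Of the wide promoter peaks 61.1% had the lower mean in the knockdown, with a median difference of -0.10, yet only 1.78% passed 2-fold lower and 0 passed 2-fold higher.

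**Figure D2:**
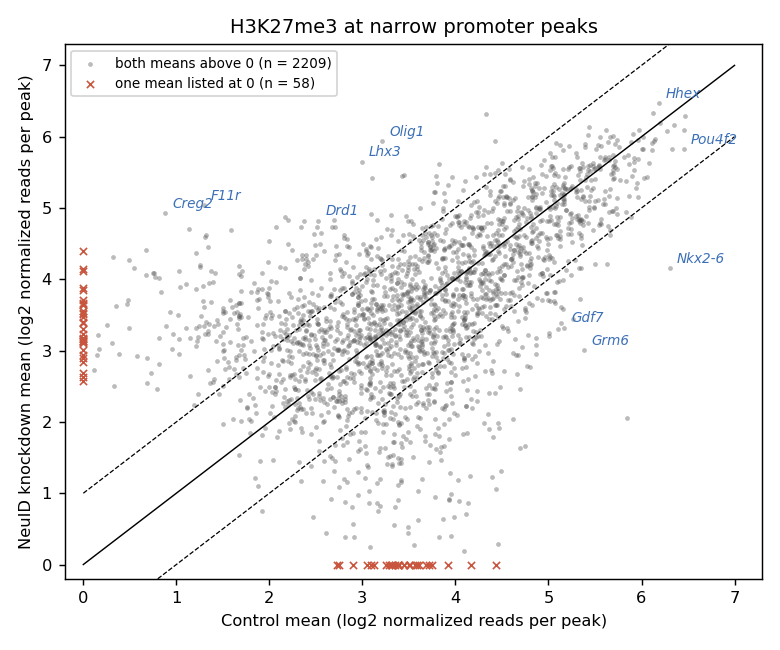
Authors' knockdown mean (y axis) against the authors' control mean (x axis) of each narrow promoter peak, both as log2 normalized reads per peak; the solid line marks equal means and the dashed lines a 2-fold difference. The 2209 peaks with both means above 0 (grey) spread widely at low means and close in on the line at high ones, and 58 peaks have a mean listed at 0 (red crosses).

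The spread between the group means depended on the number of reads. Peaks were binned by the equally weighted mean. Below 2, where only 28 narrow promoter peaks had both means above 0, 14.3% were at least 2-fold lower and 21.4% at least 2-fold higher. Among the 548 narrow promoter peaks between 2 and 3 with both means above 0, 20.1% were at least 2-fold lower and 23.9% at least 2-fold higher. Between 3 and 4 these shares were 16.4% and 18.3%, and between 4 and 5 they were 9.85% and 9.67%. At 5 and over, in 254 peaks, they were 1.57% and 3.54%. From 2 upwards, large differences were thus less frequent the more reads the peaks held. Counting error is largest where reads are few, and its part in any single peak was not tested.

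The direction of well-covered peaks was then set beside that of other narrow peaks. At 5 and over the knockdown mean was the lower in 48.4% of narrow promoter peaks (95% Wilson interval 42.3 to 54.5%) and in 57.1% of 410 narrow peaks elsewhere (52.2 to 61.8%). Between 4 and 5 the shares were 49.8% (45.6 to 54.0%) and 55.9% (53.3 to 58.4%). The intervals overlap in both bins. At 4 and over together, 49.4% of 792 narrow promoter peaks were lower (45.9 to 52.8%). Of all 3327 listed peaks of that strength, a set that includes them, 55.9% were lower (54.2 to 57.6%), and these intervals do not overlap. No test of this gap was made, since peaks share their libraries and are not replicates. In the plot by strength, the narrow peaks elsewhere lie above the promoter peaks in every bin of the 2-fold lower panel. In the 2-fold higher panel the promoter peaks lie above in every bin. The intervals of both sets overlap in every bin of both panels.

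**Figure D3:**
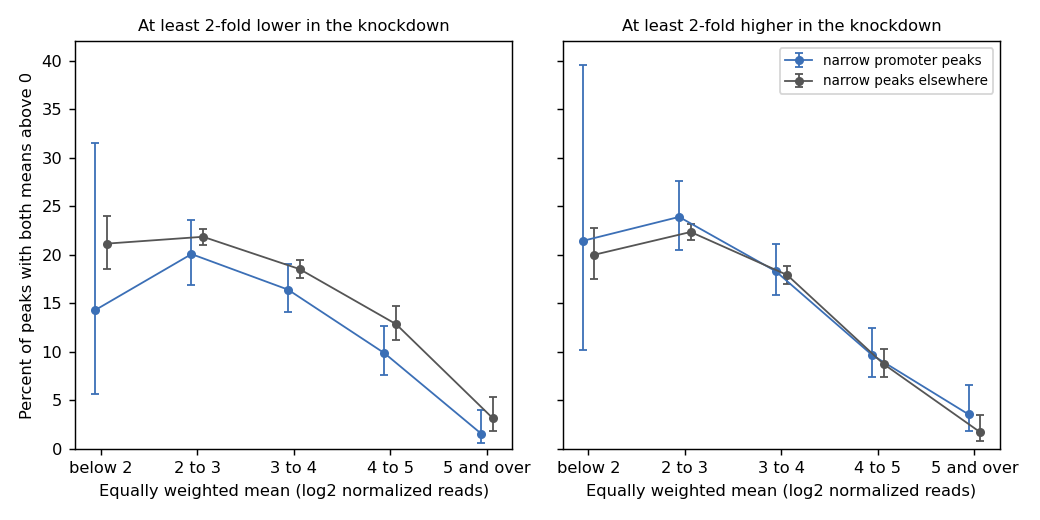
Percent of peaks with both means above 0 that were at least 2-fold lower (left) or at least 2-fold higher (right) in the knockdown (y axes), by bin of the equally weighted mean in log2 normalized reads (x axes), for narrow promoter peaks (blue) and narrow peaks elsewhere (grey). Bars show 95% Wilson intervals for counting error alone; from 2 upwards the shares in promoter peaks fall with strength, from 20.1% lower and 23.9% higher at 2 to 3 to 1.57% and 3.54% at 5 and over, while the bin below 2, with 28 peaks, has 14.3% and 21.4%.

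Position and width were examined next. Peaks over the gene start had the lower knockdown mean in 50.1%, with 12.7% at least 2-fold lower and 12.0% at least 2-fold higher. Upstream peaks passed 2-fold in 15.8% and 20.1%, and downstream peaks in 14.1% and 17.3%. Peaks over the start were also wider and stronger, with a median width of 806 bp and a median equally weighted mean of 4.10, against 486 bp and 3.20 upstream. The narrowest peaks, under 300 bp, leaned to higher knockdown means, with 39.4% lower, a median difference of 0.36 and 28.0% at least 2-fold higher. Narrow peaks of the same width elsewhere leaned the same way, with 44.7% lower. Between 1000 and 2000 bp in width, 7.24% were 2-fold lower and 7.83% 2-fold higher. CpG-rich peaks passed 2-fold lower in 10.8% and higher in 14.6%, and the others in 16.2% and 16.9%. The rank correlation of the difference with GC was 0.056, with width -0.058 and with the equally weighted mean -0.023 over 2208 peaks, all near 0. On chromosome X 29 of 59 peaks were lower, and chromosome medians ran from -0.10 on chromosome 16 to 0.15 on chromosome 15.

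The highest narrow promoter peaks belonged to genes of early development and of other tissues, and their group means lay close to each other. H2-Q1, a class I histocompatibility gene, had a control mean of 6.47 and a knockdown mean of 6.28. It is part of a family of closely similar genes, so the assignment of its reads is uncertain. Hhex, a homeobox factor of liver and blood vessel development, had 6.19 and 6.47. Pax5, the factor that sets B cell identity, had 6.46 and 6.10. None of these 3 differed by more than 1.29-fold.

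The other 5 of the 8 highest peaks were also close to equal between the groups except at Pou4f2. Neurog1, a proneural factor of sensory neurons, had 6.35 in the control and 6.17 in the knockdown. Esrp2, an epithelial splicing factor, had 6.12 and 6.33. Dmrt1, the testis factor, had 6.20 in both groups. Foxd3, a neural crest factor, had 6.28 and 6.09, and 3 wide peaks lay within 5 kb of it, with differences between -0.21 and 0.01. Pou4f2, a factor of retinal ganglion cells, had 6.45 and 5.83, a 1.54-fold lower knockdown mean. The wide peak 65 bp away from it was also lower, at 7.03 in the control and 6.37 in the knockdown.

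Per kb of peak, the control level of these 8 was highest at Pou4f2, and of the others ran from 35.0 normalized reads at Esrp2 to 46.2 at H2-Q1, and the knockdown level from 32.4 at Pou4f2 to 45.0 at Hhex.

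The largest differences among peaks with an equally weighted mean of at least 4 were then listed, 10 in each direction, and the plot of paired means shows all 20. On the lower side, the peak near AC149090.1, a gene on an unplaced scaffold, went from 5.84 in the control to 2.05 in the knockdown. No sequence of that scaffold was used, and reads on such scaffolds are often of uncertain origin. Grm6, the glutamate receptor of retinal bipolar cells, had 5.38 and 3.01 in a peak that ended 801 bp upstream of the start, chr11:50848670-50849884. The wide peak 362 bp beyond it, which covers the gene start, had the opposite sign, with 5.69 in the control and 6.28 in the knockdown. Nkx2-6, a homeobox factor of heart and pharynx, had 6.30 and 4.16 over its start, chr14:69170662-69172464. This was a 4.42-fold lower mean in a peak with 78.9 normalized reads in the control, the strongest peak of the 20 in the control.

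Gdf7, a BMP-family ligand of the dorsal neural tube, had 5.17 and 3.32 in a peak 970 bp upstream. Its wide neighbours differed in sign, from 6.48 to 5.79 at 128 bp and from 6.16 to 6.70 at 3002 bp. Bahd1, a gene of a heterochromatin protein, had 4.80 and 2.76, with a wide peak 1565 bp away near equal at 5.64 and 5.70. The remaining 5 were Smoc2, a matrix protein gene, with 4.77 and 2.78, Tpm1, a tropomyosin gene, with 4.86 and 2.95, Corin, a heart protease gene, with 5.26 and 3.45, Prkch, a protein kinase C gene, with 5.10 and 3.30, and 1600014C10Rik with 5.00 and 3.21. Neighbouring peaks at Grm6, Gdf7 and Bahd1 thus did not share the difference of the narrow peak in each case.

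On the higher side, 7 of the 10 peaks covered the gene start and 7 were CpG-rich, while on the lower side 2 of 10 covered it and 2 of the 9 with a sequence were CpG-rich. Over all peaks past 2-fold with an equally weighted mean of at least 4, the CpG-rich share was 33.9% on the lower side (19 of 56, 95% Wilson interval 22.9 to 47.0%) and 50.8% on the higher side (31 of 61, 38.6 to 62.9%). Peaks of that strength within 2-fold had 53.0%. These intervals overlap, and the split was looked at after the values were seen. The gene start was covered by 27 of 57 such lower peaks (47.4%) and by 30 of 61 such higher ones (49.2%). At all strengths the shares past 2-fold that covered it were 34.0% on the lower side and 28.1% on the higher side. The contrast in start coverage among the named peaks was thus not seen in these larger sets. F11r, which encodes the junction protein JAM-A, went from 1.29 to 5.04 over its start, chr1:171437189-171438013. Creg2, a gene expressed in brain, went from 0.88 to 4.93 in a peak 16 bp downstream of the start. Per kb, the Creg2 peak had 1.78 normalized reads in control and 29.5 in knockdown libraries, and the F11r peak had 2.97 and 39.8. Both control means lay near the lowest listed value.

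Olig1, a factor of the oligodendrocyte lineage, had 3.21 in the control and 5.94 in the knockdown in a peak of 1840 bp over its start, chr16:91269557-91271396. A second narrow peak of 322 bp upstream of Olig1 had 2.58 and 2.00, so the peaks at this gene had opposite signs. Lhx3, a LIM homeobox factor of motor neurons and pituitary, had 2.99 and 5.65 downstream of its start, with a wide peak 4224 bp away at 6.66 and 6.86. Nefh, the heavy neurofilament gene and so a gene of mature neurons, had 2.20 and 4.82. Drd1, the D1 dopamine receptor gene, had 2.52 and 4.82. Rassf1 had 2.17 and 4.87, the imprinted gene Grb10 had 2.37 and 4.82, Atp8b1, a lipid flippase gene, had 3.10 and 5.42, and Itga5, the alpha 5 integrin gene, had 2.51 and 4.73.

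**Figure D4:**
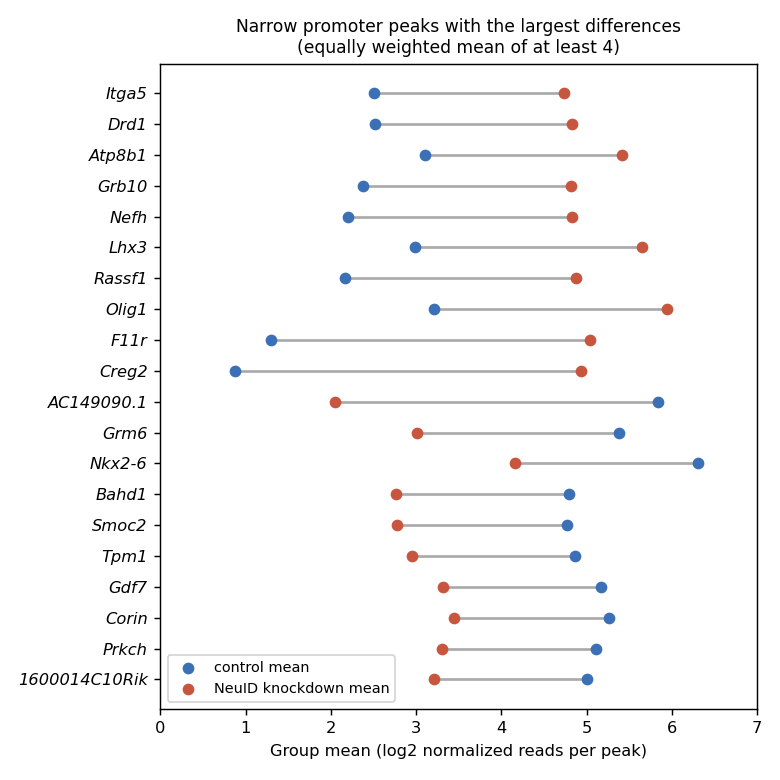
Authors' control mean (blue) and knockdown mean (red), as log2 normalized reads per peak (x axis), of the 20 narrow promoter peaks with the largest differences in either direction among those with an equally weighted mean of at least 4 (y axis, by gene). The lower knockdown means run from 2.05 at AC149090.1 to 4.16 at Nkx2-6, and the higher ones from 4.73 at Itga5 to 5.94 at Olig1.

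By gene class the median differences were small next to the spread within each class, as the dot plot by class shows. Among classes with at least 10 peaks the lowest median was that of other developmental zinc finger and nuclear receptor factors, at -0.21 with 39 of 65 peaks lower (60.0%, 95% Wilson interval 47.9 to 71.0%). The highest was that of olfactory, vomeronasal and taste receptors, at 0.35 with 9 of 21 lower (42.9%), in peaks whose median equally weighted mean was only 2.69. The large class of other protein-coding genes had a median of 0.07 with 46.5% of 1472 peaks lower (43.9 to 49.0%). The intervals of the classes overlapped, and none is called different from the rest. The class counts past 2-fold below stand beside 18.5% lower and 18.4% higher over all listed peaks. For peaks with an equally weighted mean of at least 4, these shares over all listed peaks were 8.21% and 5.92%. Of those peaks 55.9% had the lower knockdown mean. Beyond the peaks taken by the rule, the genes named in the paragraphs on classes were chosen after their values were seen, as examples.

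**Figure D5:**
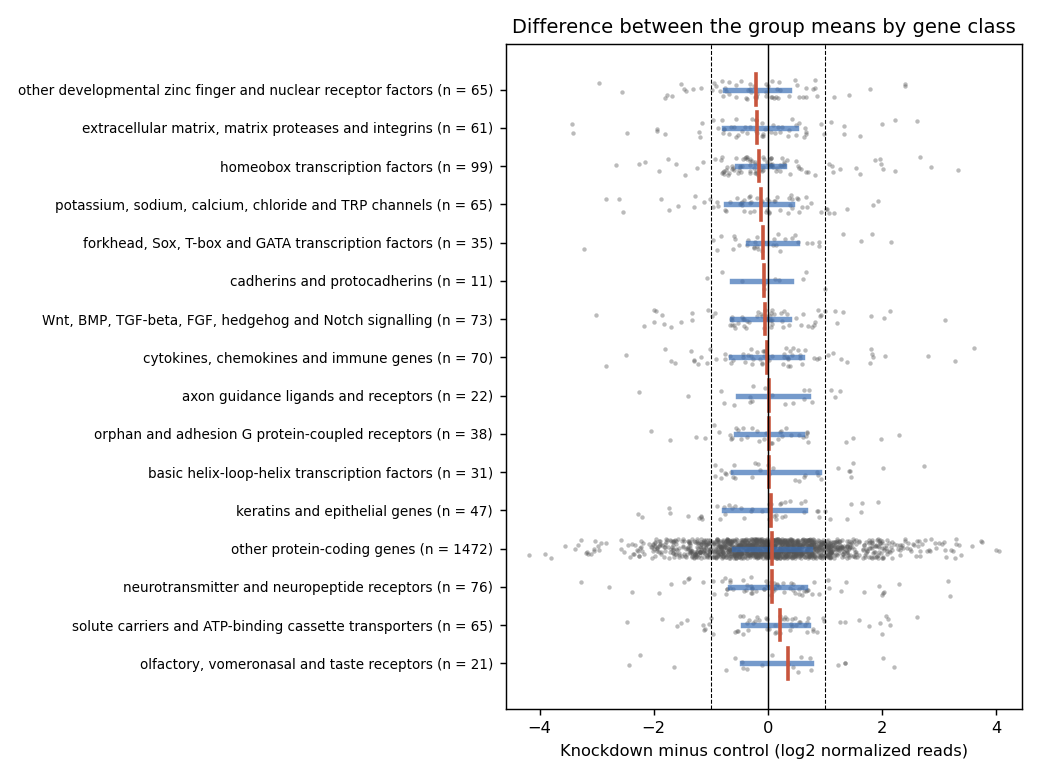
Knockdown minus control difference in log2 normalized reads (x axis) of each narrow promoter peak with both means above 0 (dots), by gene class with at least 10 peaks (y axis; n counts all narrow promoter peaks of the class). Red ticks are medians and blue bars quartiles over all peaks of the class, dashed lines mark 2-fold; medians run from -0.21 to 0.35 and every class has peaks on both sides of 0.

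By class median, peaks were widest and held most reads in the homeobox, basic helix-loop-helix, forkhead-type and other developmental factor classes. The C2H2 zinc finger class was not among these, with a median width of 637 bp and a median equally weighted mean of 3.68. The 99 homeobox peaks had the highest class median of the equally weighted mean, 4.67, at a median width of 1092 bp, with 57 lower in the knockdown (57.6%) and a median difference of -0.15. At least 2-fold lower were 9 (9.09%) and at least 2-fold higher 14 (14.1%), both below the 18.5% and 18.4% of all listed peaks. Lower examples were Mnx1, the motor neuron factor, with 5.34 and 3.73, and Gbx1 with 5.00 and 3.25 in one of its peaks and 0.76 and 4.08 in another. Higher examples were Hoxa7 with 3.44 and 5.46, and Dbx1, a factor of spinal interneurons, with 2.75 and 4.36. With an equally weighted mean of at least 4, 41 of 68 homeobox peaks were lower (60.3%), and 3 and 4 passed 2-fold (4.41% and 5.88%). Of all listed peaks of that strength 55.9% were lower, and 8.21% and 5.92% passed 2-fold.

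Of the 31 basic helix-loop-helix peaks 15 were lower, with a median difference of 0.01. None was at least 2-fold lower, against 18.5% of all listed peaks, and 7 were at least 2-fold higher (22.6%, against 18.4%). These 7 were at Olig1, Ferd3l with 3.78 and 5.23, Heyl with 3.54 and 4.77, Npas2 with 3.01 and 4.50, Msc with 1.44 and 2.86, and Helt, which had both its peaks higher, 1.52 and 3.53 in the stronger and 1.94 and 3.37 in the other. With an equally weighted mean of at least 4, 5 of 15 peaks of the class were lower (33.3%, 95% Wilson interval 15.2 to 58.3%) with a median difference of 0.63, and 0 passed 2-fold lower and 3 higher. Neurog1 and the heart and limb factor Hand2, with 5.95 and 5.35, were among the 5 lower, and Mesp1, a mesoderm factor, had 5.15 and 5.81. The 35 forkhead, Sox, T-box and GATA peaks had 1 past 2-fold lower, Foxi3 with 3.86 and 0.64, and 4 past 2-fold higher, among them Sox13 with 2.84 and 4.46. Other developmental zinc finger and nuclear receptor factors had 10 past 2-fold lower, among them Nr2f2 with 4.86 and 3.18 and Nr2e1, a neural stem cell factor, with 4.23 and 2.43. Past 2-fold higher there were 5, among them Zic2 with 3.82 and 5.61.

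Signalling genes had 73 peaks, 40 of them lower (54.8%), with 12 past 2-fold lower and 7 past 2-fold higher. These shares, 16.9% and 9.86% of the peaks with both means above 0, stand beside 18.5% and 18.4% of all listed peaks. The lower peaks included those at Gdf7 and both peaks at the ligand gene Bmp4, with 5.02 and 3.69, and 4.48 and 2.49. The higher peaks included those at the ligand gene Bmp7, with 1.59 and 4.69, and the receptor gene Tgfbr2, with 3.43 and 4.61. Peaks at Wnt3 and Rspo4 were listed at 0 in the knockdown. Of the strong signalling peaks, with an equally weighted mean of at least 4, 13 of 31 were lower (41.9%), 2 passed 2-fold lower and 1 higher. The highest peak of the class, at the growth factor gene Tgfb1, had 6.08 and 5.63.

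Neuronal receptor genes had 76 narrow promoter peaks, 36 lower (47.4%). Past 2-fold lower were 9 (12.2%) and higher 12 (16.2%), against 18.5% and 18.4% of all listed peaks. The strongest peak of the class was at Adra1d, an alpha-1 adrenergic receptor gene, with 4.33 in the control and 6.32 in the knockdown, a 3.98-fold higher mean. Npbwr1, a neuropeptide receptor gene, had 3.43 and 5.45, and Galr1, a galanin receptor gene, 4.10 and 5.39. On the lower side stood the upstream narrow peak of Grm6, Sstr5 with 5.09 and 3.96, and Galr2, a second galanin receptor gene, with 4.13 and 0.86. The oxytocin receptor gene Oxtr, with 5.71 and 5.42, and the vasopressin receptor gene Avpr1a, with 5.48 and 5.59, had strong peaks with near-equal means. The class therefore held peaks that differed in both directions, also between receptors of the same ligand family.

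Ion channel genes had 65 peaks, 37 lower (56.9%). Past 2-fold lower were 10 (15.9%) and higher 7 (11.1%), against 18.5% and 18.4% of all listed peaks. Scn9a, a sodium channel gene of pain neurons, had 4.67 and 2.93, and Kcnc4 had 4.75 and 3.45. Kcnk12 had 3.73 and 4.75, and the strongest channel peak, at Kcnk15, had 5.41 and 5.30. Extracellular matrix genes had 61 peaks, 36 lower (59.0%), with 9 past 2-fold lower, among them Col27a1 with 4.12 and 0.71 and Lamb1 with 4.74 and 3.59, and 7 past 2-fold higher. The strongest matrix peak, at the collagen cross-linking enzyme gene Lox, had 6.14 and 5.94. Solute carrier and transporter genes had 27 of 65 peaks lower (41.5%, 95% Wilson interval 30.4 to 53.7%, which holds the 48.4% of all narrow promoter peaks) and a median difference of 0.22. Past 2-fold lower were 9 and higher 10, and with an equally weighted mean of at least 4 there were 10 of 21 lower, with 3 past 2-fold lower and 1 higher. Slc15a1, a peptide transporter gene, had 5.14 and 3.61, and Slc26a4, an anion exchanger gene, 2.70 and 4.83. The strongest, at the cation transporter gene Slc22a3, had 4.93 and 5.47.

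Immune genes had 12 of 70 peaks past 2-fold lower and 12 past 2-fold higher. Each was 17.6% of those with both means above 0, beside 18.5% and 18.4% of all listed peaks. With an equally weighted mean of at least 4, 5 of 22 immune peaks passed 2-fold lower (22.7%) and 0 passed 2-fold higher. All listed peaks of that strength had 8.21% and 5.92%. The 5 lower immune peaks were at Irf5 with 5.50 and 4.22, H2-T3, Il20ra, Ly75 and Tlr2. Keratin and epithelial genes had 9 of 47 past 2-fold lower, with Krt8 at 5.07 and 3.67 and its partner Krt18 at 3.57 and 2.36, and 6 past 2-fold higher, with Gjb2 at 2.72 and 4.34. With an equally weighted mean of at least 4 these counts were 4 lower and 1 higher of 19. Those are 21.1% and 5.26%, beside 8.21% and 5.92% of all listed peaks of that strength. Axon guidance genes had 22 peaks, 11 lower, with Robo3 strongest at 4.81 and 4.54, and Epha6 on both sides, at 4.08 and 1.83 in one peak and 1.64 and 2.91 in another. Orphan and adhesion receptors had 4 of 38 past 2-fold in each direction, and their strongest peak, at Gpr50, had 5.73 and 5.95. Cadherins had 1 of 11 past 2-fold, Cdh6, with 3.22 and 2.15, and were strongest at Dsg2, with 4.68 and 4.61. The strongest peak among C2H2 zinc finger genes, at Zfp296, had 5.54 and 5.88, and that among olfactory receptors, at Olfr412, 4.09 and 4.82. Ndufa4l2, strongest of the genes for ribosome, mitochondrion and proteasome, had 4.86 and 4.72. Among the other protein-coding genes it was Prlhr, a peptide receptor gene, with 5.97 and 6.10.

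A group mean was listed at 0 in 58 narrow promoter peaks. In the knockdown this was so in 27, or 1.19%, against 3.35% of all listed peaks, and in the control in 31, or 1.37%, against 3.28%. The other group's mean ran from 2.73 to 4.44 where the knockdown was at 0 and from 2.57 to 4.39 where the control was, and all 58 peaks were at most 832 bp wide. The strongest listed at 0 in the knockdown were Glp1r, the GLP-1 receptor gene, with a control mean of 4.44, Asic2, an acid-sensing channel gene, with 4.17, Myo5b with 3.92 and Wnt3 with 3.75. The wide peak 280 bp from the Wnt3 peak had 6.88 in the control and 6.63 in the knockdown. Listed at 0 in the control were Tmem255b, with a knockdown mean of 4.39, E130308A19Rik with 4.15, the lens gene Cryge with 4.11 and Cad, an enzyme of pyrimidine synthesis, with 3.88. No fold is given for these peaks.

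Where a gene had several narrow promoter peaks, the differences of its peaks were barely related. Over 471 pairs of peaks at the same gene with all means above 0 the rank correlation of the differences was 0.0092, and 241 pairs (51.2%) had the same sign. Restricted to 73 pairs with equally weighted means of at least 4 it was 0.050, with 54.8% of the same sign. Of the 471 pairs, both peaks passed 2-fold lower in 7 and 2-fold higher in 11, and 26 pairs passed 2-fold in opposite directions. Single narrow promoter peaks passed 2-fold lower in 14.0% and higher in 15.9%. Whether the pair counts differ from those of unrelated peaks was not tested. A narrow peak and the widest wide promoter peak of its gene had the same sign in 46 of 82 cases (56.1%). Only 73 of the 471 pairs had both equally weighted means at least 4, so most pairs held a peak with few reads. The counts past 2-fold take all pairs of peaks at a gene, and pairs of adjacent peaks were not counted apart.

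At the genes with most peaks the differences also varied from peak to peak. At Drd2, the D2 dopamine receptor gene, the peak over the start had a control mean of 4.27 and a knockdown mean of 4.72, and the peak 903 bp downstream had 1.21 and 4.37. The 2 upstream peaks had 3.08 and 4.14, and 3.59 and 3.15. At Ret, a receptor tyrosine kinase gene of neural crest and kidney, the peak over the start had 1.67 and 4.08, the upstream peak 3.99 and 3.65, and 1 of the 2 downstream peaks 2.41 and 2.36. The other downstream Ret peak was listed at 0 in the control, with 2.83 in the knockdown. Peaks within 5 kb of a wide peak had the lower knockdown mean in 53.8% of 156, with a median difference of -0.15, and those farther away in 48.0% of 2111, with a median of 0.05.

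Cell type markers were looked up from lists of known genes. Because the mark sits on silent genes, a peak is not a sign that a cell type is present, and the lists do not check the labelled cell type by expression. Of 12 neuron markers 9 had no promoter peak of either width. The 3 with narrow peaks were Nefl, with 3.76 and 3.20 over its start and 3.62 and 3.72 downstream, Slc17a7, the vesicular glutamate transporter gene, with 1.99 and 3.75, and Syt1 with 2.06 and 2.39. All of these means were below 4. Of 10 astrocyte markers 0 had a promoter peak of either width.

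Of 10 oligodendrocyte lineage markers 3 had narrow peaks. Beside Olig1 these were Pdgfra, with 5.42 and 5.48, and Sox10, with 3.41 and 3.30, both near equal, and Olig2 had a wide peak only. Of 8 inhibitory neuron markers Sst had 4.42 and 5.10, Calb2 2.78 and 3.88 and Gad1 2.17 and 2.21, with wide peaks at Gad2, Npy and Slc32a1. Of 8 microglia markers only Itgam had a narrow peak, at 2.90 for the control group and listed at 0 in the knockdown. Endothelial markers had narrow peaks at 3 of 6: Cldn5, Kdr and Flt1. Cldn5 had 5.91 and 6.04 over its start and 3.62 and 2.99 upstream. Kdr had 5.20 and 5.27 in its stronger peak and 1.69 and 4.04 in its weaker one, a 5.11-fold higher mean, and Flt1 had 4.16 and 3.77.

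Progenitor markers had narrow peaks at 2 of 8, Eomes with 4.35 and 3.74, and Pax6, a factor of cortical and eye development. The 3 Pax6 peaks did not share a direction, with 3.84 and 1.58, and 3.71 and 2.25, downstream of the start, and 3.50 and 4.64 upstream. Among 12 genes for subunits and partners of Polycomb repressive complex 2 only Epop had narrow promoter peaks, 5.69 and 5.49 in the stronger and 2.82 and 3.44 in the weaker. None of the 4 transcription factor genes the study singled out, Olig2, Hes1, Etv5 and Tcf7l2, had a narrow promoter peak. The paper's evidence for them lies across their loci and gene bodies, which the rule on width and distance does not take in.

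The peaks nearest to the limits of the rule were these. Just under 2000 bp were Hand2 at 1996 bp, and Esrp2 at 1993 bp. Just above was Wnt16 at 2003 bp, with 5.60 and 5.73. Just inside 1000 bp from the start were Mpeg1 at 999 bp, with 1.94 and 3.02, and Astn2 at 997 bp, with 2.01 and 3.70. Just outside were Gm20441, with 3.26 and 3.07, and Prkcz, with 3.26 and 3.39, both at 1001 bp.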

How the data were processed

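H3K27me3 ChIP-seq peaks of control and NeuID knockdown neurons were taken from the authors' table. The authors aligned single-end reads to mm10 (bowtie2), used MACS2 in its broad mode for peaks and then ran DiffBind with its DESeq2 option. The versions of bowtie2, MACS2 and DiffBind, the normalization, duplicate removal and input subtraction were not given in the sources used here. The deposited values used are log2 means of normalized reads per group, from the authors. The table also holds the authors' own comparison, a log2 fold, a p-value and an FDR per peak, and these 3 columns were not used. Unused columns of single samples numbered 0. The depth of each library is unknown here, and with it the precision of each peak.

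Groups were taken from the sample titles. Peaks were assigned to the nearest start of a protein-coding gene in GENCODE M21, all on or within 1000 bp, and 0 peaks passed a chromosome end of GRCm38, to which mm10 corresponds. The difference was the knockdown minus the control log2 mean, and no test was run. Gene classes were set by symbol patterns, first match in a fixed order, so that a few relatives fall elsewhere (Prlhr, a peptide receptor gene, is among other protein-coding genes). Named peaks were the 8 with the highest equally weighted mean, the 10 largest differences in each direction at a mean of at least 4, the 4 strongest listed at 0 in each group, the strongest of each class, all at marker genes and at genes with most peaks, and those nearest to the limits, except for results not reported here. The set of peaks, lists and rules were chosen with earlier results of these data known. GC, CpG and sequences were read from GRCm38 for all members except the 1 on a scaffold. Intervals are 95% Wilson intervals. Alternatives changed the gene start rule, the window, the width limit, the fold limit, the strength filter, the scale, the centring and the chromosomes used. Scripts were tested on simulated data. Calculations ran in Python 3.11.15 with pysam 0.24.0, SciPy 1.17.1, pandas 2.3.3, matplotlib 3.10.9 and numpy 2.4.6.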

Additional observations from a re-analysis of the deposited data

How the results depend on the processing

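The share of narrow promoter peaks with the lower knockdown mean stayed between 47.7% and 50.1%, and the median difference between -0.0017 and 0.06, under all alternatives run. With the gene start inside the peak, 837 peaks were left, 105 of them at least 2-fold lower and 99 higher, with 8 listed at 0 in the knockdown and 5 in the control. Within 500 bp of the start, 15 and 20 were listed at 0. Within 2 kb, 490 peaks were at least 2-fold lower and 45 and 59 were listed at 0. With an equally weighted mean of at least 4, 792 peaks were left, 57 at least 2-fold lower and 61 higher, and 0 and 0 were listed at 0. At least 3-fold lower were 148 and higher 177, and at least 1.5-fold lower were 550 and higher 602. The count higher exceeded the count lower except with the start inside the peak, with ratios from 0.943 to 1.20. Among the class shares 154 moved by less than their interval and 6 by more. No paired analysis was possible because the table gives group means and not values per library. For the same reason no library could be left out, and no spread between libraries is known.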
